A study of Arabidopsis thaliana with 8 samples.

Results

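Flowers use the phenylpropanoid route to make flavonols, anthocyanins, proanthocyanidins and the precursors of lignin from phenylalanine. A shared entry block feeds chalcone synthase, after which flavonol synthase and dihydroflavonol reductase compete for the same intermediates. Flavonol genes are driven by a small group of MYB factors, whereas anthocyanin and proanthocyanidin genes are driven by complexes of MYB, bHLH and WD40 proteins. In Arabidopsis flowers flavonols accumulate in anthers and pollen, and proanthocyanidins are made in the inner integument that becomes the seed coat.

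The genes described here are 37 loci of this route, taken by locus identifier from a table of 28775 genes. They were sorted by role into 8 entry genes, 6 early flavonoid genes, 3 late flavonoid genes, 6 decoration genes, 4 transport and oxidation genes, 3 flavonol MYB genes and 7 members of the MYB-bHLH-WD40 complexes. All 37 had reads in both treatments, and 33 had 200 reads or more.

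The study looked for genes downstream of RABBIT EARS (RBE), a zinc-finger transcription factor needed for petal development. All plants were of the L er strain and carried 35S:GR-RBE, a fusion of RBE to the glucocorticoid receptor under a constitutive viral promoter, so that the fusion was present in both treatments and outside the cells that normally express RBE. Floral buds of mixed stages were treated for 4 h. DEX buds received dexamethasone at 10 µM, which lets the fusion enter the nucleus, with 0.1% ethanol and 0.015% Silwet, and mock buds received the ethanol and Silwet alone. Every treatment was sequenced in 4 libraries, 2 technical replicates of each of 2 biological replicates. No plants without the transgene were compared here, so responses to dexamethasone itself cannot be told apart from responses to RBE.

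The authors' deposited table gives 1 level per gene and treatment, over all libraries of that treatment. No difference below therefore has a replicate check. Differences are given as the log2 ratio of DEX over mock in the authors' deposited table, and ± is the standard error from read counting alone. The ratio is scaled to the reads of each pool, so it is not the plain quotient of a gene's reads. Reads were inferred from a score in the same table, and summed to 102140569 in DEX and 119057970 in mock. Levels are in RPKM, the reads of a gene per kilobase of exon and scaled to the reads of its pool. Calls, higher or lower, were made at a posterior probability of under 0.05 for the opposite direction, as the authors deposited it. That limit is easily passed at this depth, since 36.4% of the 24945 genes with reads in both pools were called higher and 20.8% lower. With a ratio of 1.5-fold or more as well, the shares were 4.45% higher and 2.91% lower, or 2.49% and 2.43% among genes with 200 reads or more. The median log2 ratio of all genes with reads in both pools was 0.05.

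The tissue label was checked against marker genes. The organ identity genes PI, SEP2 and AP3 stood at 163, 114 and 101 RPKM in the DEX pool and at 166, 107 and 118 RPKM in the mock pool. Of 6 such genes, 5 were called lower and 1 higher, with a median of -0.12. The root endodermis genes CASP1 and CASP5 had at most 1 read in either pool, and the third, CASP2, which was not called, had 68 reads in DEX against 62 in mock.

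The route did not move as a block. The late genes that lead to anthocyanins and proanthocyanidins were higher in DEX, with BAN at 2.27-fold, while 7 of 8 entry genes, 4 of 6 early flavonoid genes, the flavonol MYB genes and the methyltransferase gene OMT1 were lower. Of the 37 genes, 11 were called higher, 19 lower and 7 were not called. At 1.5-fold or more, 3 were higher (BAN, AHA10 and TT2) and 5 were lower (PAL3, OMT1, MYB11, MYB12 and PAP2). Against the shares of all genes given above, 3 of 37 compares with 4.45% and 5 of 37 with 2.91%. The median log2 ratio of the 37 genes was -0.08. Of the 37, 10 overlap an exon of another gene of the deposited table or share a near-identical stretch with another gene, so their reads are less certain. Besides those named with their values below, these are 4CL1 and CHS, with overlaps of 24 and 2 bases, and UF3GT, with a stretch of 132 bases in another gene. MYB11 and GL3 overlap annotated genes outside the table, over 110 and 36 bases. In buds, fewer cells that express a gene and less RNA per cell cannot be told apart.

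**Figure D1:**
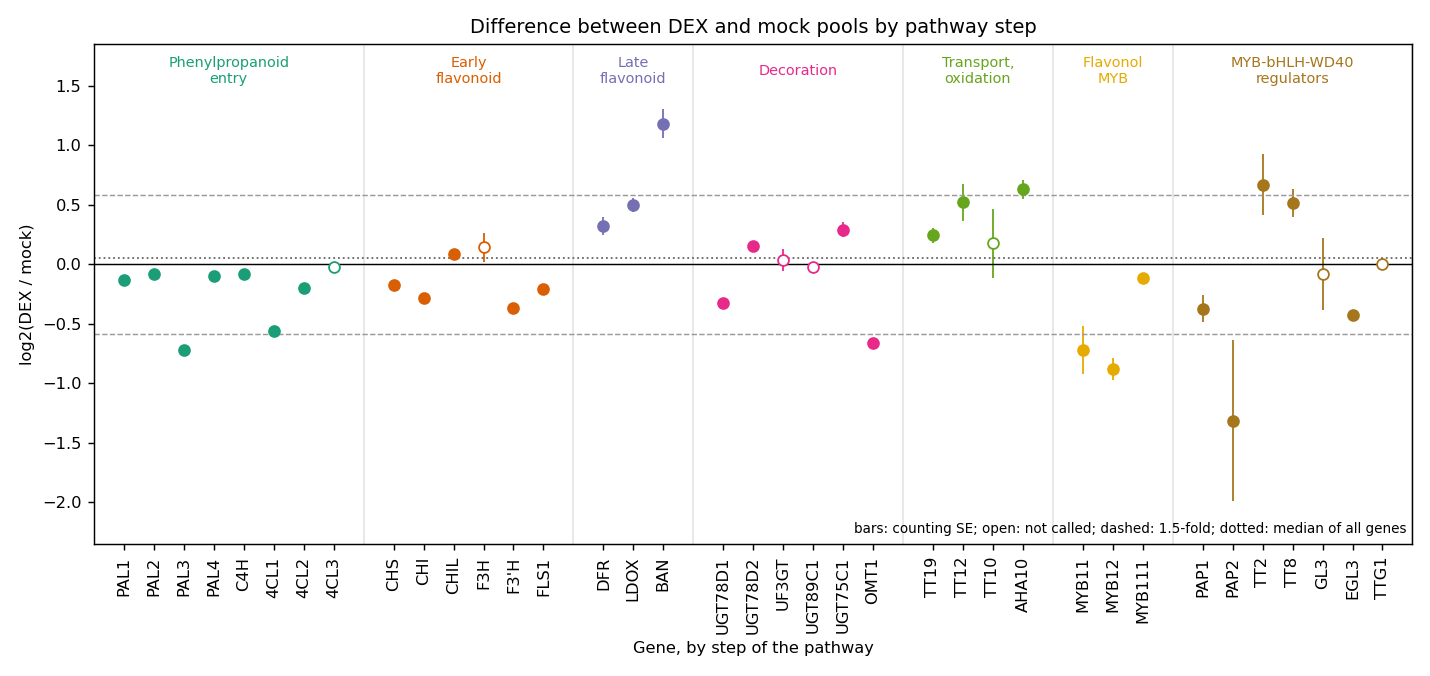
Log2 ratio of DEX over mock for each of the 37 genes, grouped by step, with the counting standard error as bars and open points for genes that were not called. The 3 late flavonoid genes lie at 0.32 or higher, above all 8 entry genes, which lie at -0.02 or lower.

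The entry genes were lower in DEX with small differences, except for PAL3 (AT5G04230) and 4CL1 (AT1G51680). Of the 8, 7 were called lower and none higher, and they had a median of -0.11. PAL1 (AT2G37040), which like its paralogs encodes the phenylalanine ammonia-lyase that opens the route, had 22298 reads in DEX against 28410 in mock, which is a log2 ratio of -0.13 ± 0.01. C4H (AT2G30490), the cinnamate hydroxylase that follows, had 20458 reads in DEX against 25208 in mock, which is a log2 ratio of -0.08 ± 0.01. These large counts make the error small, but the differences were 1.09-fold and 1.06-fold.

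PAL3 was the entry gene with the largest difference. It had 1695 reads in DEX against 3258 in mock, which is a log2 ratio of -0.72 ± 0.04, or 1.65-fold lower in DEX. Its paralogs PAL2 (AT3G53260) and PAL4 (AT3G10340) were at -0.09 ± 0.02 and -0.10 ± 0.02. Per length PAL3 was also the least abundant of the 4, at 6.36 RPKM in DEX and 10.5 in mock, against 74.5 in DEX and 81.4 in mock for PAL1. PAL3 occupies bases 1160569 to 1163957 of chromosome 5 in TAIR10.1, plus strand.

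The ligases that activate coumarate with coenzyme A differed among themselves. 4CL1, known for its role in lignin, had 7169 reads in DEX against 12315 in mock, which is a log2 ratio of -0.56 ± 0.02, or 1.47-fold lower in DEX. 4CL2 (AT3G21240) was at -0.20 ± 0.04. 4CL3 (AT1G65060), the paralog tied to flavonoid synthesis, was not called, at -0.02 ± 0.03 with a posterior of 0.834 for mock being higher in the authors' deposited table.

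Of the 6 early flavonoid genes, which lead to flavonols and, except for FLS1, also to the late branch, 4 were called lower and 1 higher. The median of the 6 was -0.19. CHS (AT5G13930), chalcone synthase, was the most abundant of the 37 per length, at 381 RPKM in DEX and 430 in mock. Its reads, about 66000 in DEX and 87000 in mock, gave a log2 ratio of -0.17 ± 0.01. FLS1 (AT5G08640), the main flavonol synthase, had 13668 reads in DEX against 18372 in mock, which is a log2 ratio of -0.21 ± 0.02.

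Of the enzymes between them, CHI and F3'H were lower too. CHI (AT3G55120), chalcone isomerase, was at -0.28 ± 0.03. F3'H (AT5G07990), which adds the second hydroxyl group of the B ring and so opens the way to quercetin and cyanidin, was at -0.36 ± 0.03. CHIL (AT5G05270), a non-catalytic relative of chalcone isomerase that promotes flavonoid synthesis, was the exception at 0.09 ± 0.02.

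F3H (AT3G51240), flavanone 3-hydroxylase, was not called and had few reads, 270 in DEX and 286 in mock. Per length that was 1.76 RPKM in DEX and 1.59 in mock, far below its neighbours in the route. The annotated antisense gene AT3G51238 covers 1415 exonic bases of F3H and is listed with 0 reads in both pools. The strand setting of the counting is not given in the sources used here, and the part of this overlap in the low count was not tested.

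All 3 late flavonoid genes were called higher in DEX, with a median log2 ratio of 0.50. DFR (AT5G42800), the dihydroflavonol reductase that turns intermediates away from flavonols, had 762 reads in DEX against 709 in mock, which is a log2 ratio of 0.32 ± 0.08. LDOX (AT4G22880), the dioxygenase that makes anthocyanidins, had 1218 reads in DEX against 1006 in mock, which is a log2 ratio of 0.50 ± 0.06. LDOX shares near-identical sequence with its neighbour AT4G22870, which had 8 reads in DEX against 17 in mock.

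BAN (AT1G61720) encodes anthocyanidin reductase, the enzyme that commits anthocyanidins to proanthocyanidins, and had the highest ratio of the 37. It had 404 reads in DEX against 208 in mock, which is a log2 ratio of 1.18 ± 0.12. The exact 95% counting interval of the fold (Clopper-Pearson) ran from 1.91 to 2.69. Its level was nonetheless low, at 2.77 RPKM in DEX and 1.22 in mock. BAN occupies bases 22790966 to 22792803 of chromosome 1, minus strand.

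Of the 4 genes for moving and oxidising flavonoid end products, the 3 that act in transport were called higher and the laccase gene was not called. The median of the 4 was 0.38, and 0.52 over the 3 with 200 reads or more. AHA10 (AT1G17260), a plasma-membrane-type proton pump that energises proanthocyanidin transport into the vacuole, had 807 reads in DEX against 609 in mock, which is a log2 ratio of 0.63 ± 0.08, or 1.55-fold. With the median ratio of genes with 200 reads or more set to 0, AHA10 stood at 0.58, just under 1.5-fold. TT12 (AT3G59030), the transporter of proanthocyanidin precursors thought to use that gradient, had 199 reads in DEX against 162 in mock, which is a log2 ratio of 0.52 ± 0.15. TT19 (AT5G17220), a glutathione transferase needed for the vacuolar storage of anthocyanins and proanthocyanidins, had 1143 reads in DEX against 1127 in mock, which is a log2 ratio of 0.24 ± 0.06. TT10 (AT5G48100), a laccase that browns proanthocyanidins in the seed coat, was near the limit of detection with 49 reads in DEX against 51 in mock, and its ratio of 0.18 ± 0.29 was not called.

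TT19 and TT12 each overlap an exon of a more abundant gene on the opposite strand, over 108 and 92 bases. Their partners were slightly lower in DEX, PSY (phytoene synthase) at -0.12 ± 0.02 and AT3G59040 at -0.07 ± 0.03. The part of these overlaps in the ratios of TT19 and TT12 was not tested.

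Because BAN, TT12, AHA10, TT2 (AT5G35550) and TT8 (AT4G09820), all called higher, serve the inner integument, ovule genes were looked up after these values were seen. Of 7 ovule and integument genes, 2 were called higher, 1 lower and 4 were not called, with ratios from -0.11 to 0.17. Their summed level was 72.2 RPKM in DEX and 69.4 in mock. STK and SHP1 were called higher, at 0.17 ± 0.03 and 0.14 ± 0.03, and each overlaps another gene. BEL1 was called lower, at -0.11 ± 0.04. Among those not called, TT16, an integument regulator of BAN that is also among the activators below, was at 0.03 ± 0.08. INO, of the outer integument, was not called either, at -0.07 ± 0.06. Of 6 seed genes, also looked up then, 4 had reads in both pools, and 2 of these were called higher. FUS3 was at 0.29 ± 0.09, and LEC1 had 8 reads in DEX against 2 in mock, with a 95% counting interval of the fold from 0.93 to 45.1. The storage and oil body genes SESA1, OLEO1 and OLEO2 among them had 0, 1 and 0 reads in DEX and 9, 1 and 2 in mock, and genes with no reads in a pool were left without a call. Of other genes that act in the seed coat, TTG1 at 0.00 ± 0.03, TT1 at 0.07 ± 0.26 and TT10 at 0.18 ± 0.29 were not called, and the regulators TTG2 and MYB5 were called higher. MYB5 had 81 reads in DEX against 71 in mock, and the 95% counting interval of its fold, from 0.955 to 1.86, included 1. A gene on the opposite strand covers all 1337 exonic bases of MYB5, so its reads are less certain. With pooled values no test between these genes and the ovule genes is possible.

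The decoration genes, which attach sugars or methyl groups, went both ways. Of 6, 2 were called higher and 2 lower, around a median of 0.01. The sign of that median is not settled, since it was -0.037 and -0.0077 under the other scalings and -0.32 without genes that have a copy or an overlap. UGT78D1 (AT1G30530), which adds rhamnose to flavonols, had 9797 reads in DEX against 14294 in mock, which is a log2 ratio of -0.32 ± 0.02. UGT89C1 (AT1G06000), which adds a second rhamnose to flavonols, was not called at -0.03 ± 0.03. UGT75C1 (AT4G14090), a glucosyltransferase of anthocyanins, was at 0.29 ± 0.06, and UGT78D2 (AT5G17050), which glucosylates flavonols and anthocyanidins, at 0.15 ± 0.03. UF3GT (AT5G54060), the anthocyanin xylosyltransferase, was not called at 0.04 ± 0.09. UGT75C1 and UGT89C1 overlap genes on the opposite strand, over 230 and 1580 exonic bases.

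OMT1 (AT5G54160) combined a high level with a large difference. This O-methyltransferase acts on lignin precursors and turns quercetin into isorhamnetin. It had 16874 reads in DEX against 31103 in mock, which is a log2 ratio of -0.66 ± 0.01, or 1.58-fold lower in DEX. Per length it stood at 110 RPKM in DEX and 175 in mock, second only to CHS among the 37 genes. OMT1 occupies bases 21981902 to 21984399 of chromosome 5, plus strand.

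**Figure D2:**
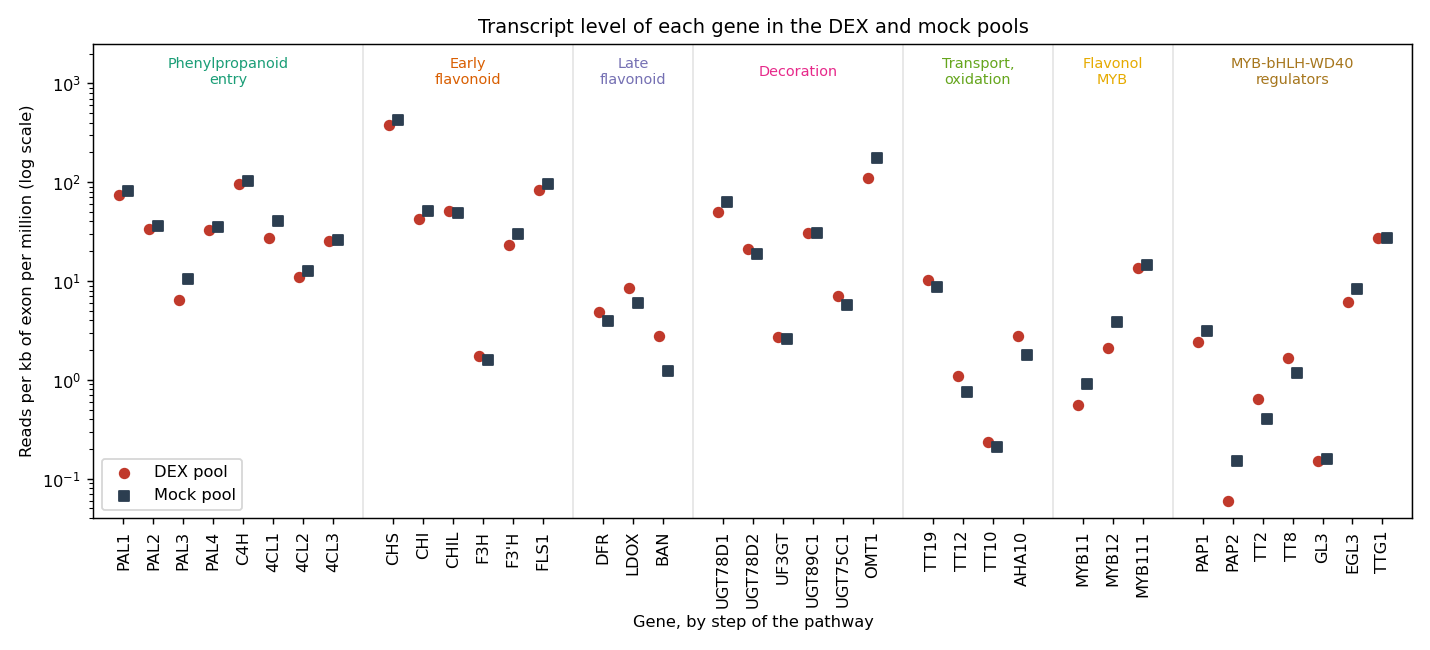
Level in RPKM in the DEX pool (circles) and the mock pool (squares) for each of the 37 genes, on a log axis. CHS and OMT1 are the most abundant, and the late and transport genes lie near or below 10.

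The abundant genes of the route were mostly called lower, the others more evenly in both directions. Of the 15 genes with a mean level of 20 RPKM or more, 11 were called lower and 1 higher. Of the 22 genes below that level, 8 were called lower and 10 higher. The limit of 20 was chosen after the values were seen. A tilt in the same direction was present outside the route. When all genes that met the read minimum were put in groups of like read number, the median log2 ratio fell with reads. It was 0.11 in the group with a median of 269 reads and -0.01 in the group with a median of 60030. Over all genes with reads in both pools, 36.4% were called higher and 20.8% lower. Those shares were not split by level, and whether the route differs from other genes of like level was not tested. Summed over the step, early flavonoid genes reached 583 RPKM in DEX and 657 in mock, and late genes 16.2 in DEX and 11.2 in mock.

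The 3 MYB factors that activate CHS, CHI, F3H and FLS1 were all called lower, with a median of -0.72. MYB12 (AT2G47460) had 338 reads in DEX against 725 in mock, which is a log2 ratio of -0.88 ± 0.10, or 1.84-fold lower in DEX. MYB11 (AT3G62610) had 78 reads in DEX against 150 in mock, which is a log2 ratio of -0.72 ± 0.20. MYB111 (AT5G49330) differed far less, with 2244 reads in DEX against 2839 in mock for a log2 ratio of -0.12 ± 0.04. MYB111 was the most abundant of them per length, at 13.5 RPKM in DEX and 14.6 in mock, against 2.09 in DEX and 3.85 in mock for MYB12. MYB12 occupies bases 19476326 to 19479597 of chromosome 2, plus strand.

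The MYB-bHLH-WD40 genes went both ways. TT2, the MYB factor of proanthocyanidins, had 74 reads in DEX against 55 in mock, which is a log2 ratio of 0.67 ± 0.26, with a 95% counting interval of the fold from 1.09 to 2.27. TT8, its bHLH partner, which also acts in anthocyanin synthesis, had 344 reads in DEX against 280 in mock, which is a log2 ratio of 0.51 ± 0.12. Both were called higher.

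Of the MYB genes of anthocyanin synthesis, PAP1 and PAP2 were called lower. PAP1 (AT1G56650) had 271 reads in DEX against 409 in mock, which is a log2 ratio of -0.37 ± 0.11. PAP2 (AT1G66390) had only 6 reads in DEX against 18 in mock, which is a log2 ratio of -1.31 ± 0.67, or 2.49-fold lower in DEX. Its posterior of 0.98 for mock being higher in the authors' deposited table made it a call. The exact 95% counting interval of its fold nevertheless reached from 0.126 to 1.02. PAP2 shares a near-identical stretch of 131 bases with its neighbour MYB114. The related genes MYB113 and MYB114, from the further activators, had 8 and 1 reads in DEX and 7 and 0 in mock, and neither was called.

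The remaining partners act with several MYB factors, also in hair and root cell fate. EGL3 (AT1G63650), a bHLH factor, had 1640 reads in DEX against 2567 in mock, which is a log2 ratio of -0.43 ± 0.05. GL3 (AT5G41315), its close relative, had 41 reads in DEX against 51 in mock and was not called. TTG1 (AT5G24520), the WD40 protein common to all these complexes, had 5277 reads in DEX against 6146 in mock, which is a log2 ratio of 0.00 ± 0.03 with a 95% counting interval of the fold from 0.964 to 1.04. The 7 genes together had 2 called higher, 3 lower and 2 not called.

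**Figure D3:**
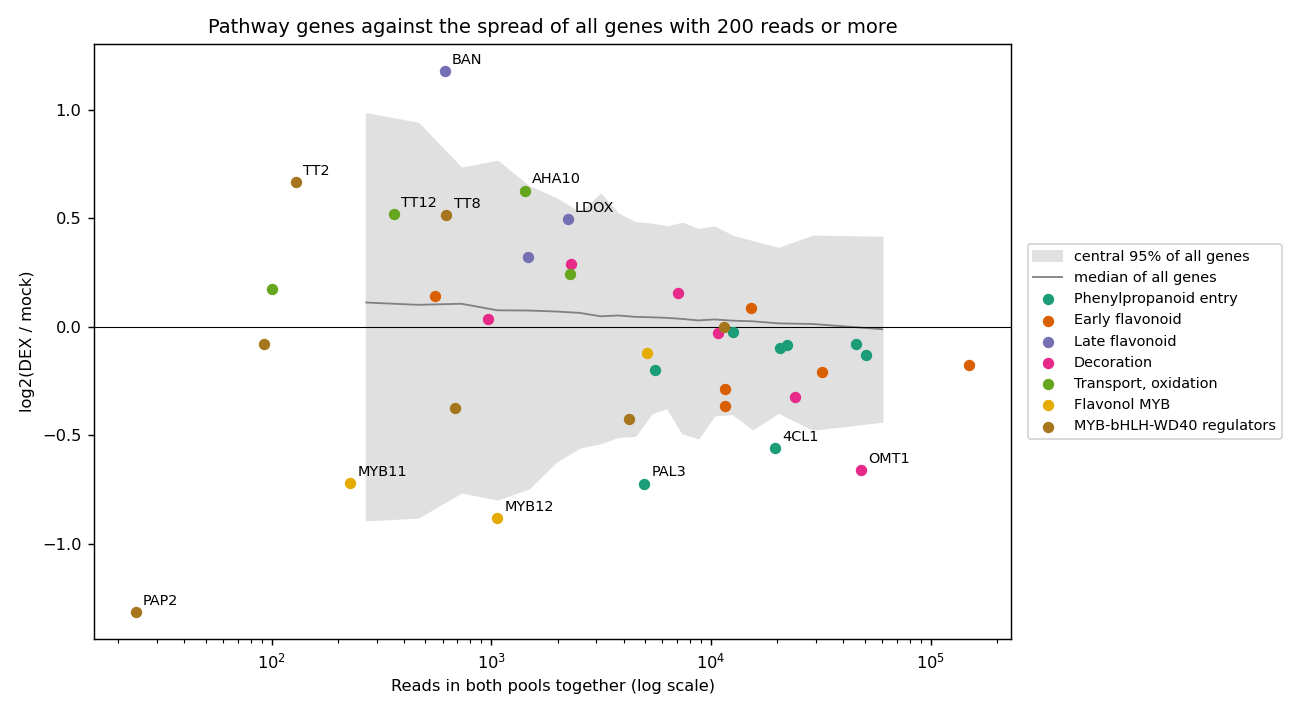
Log2 ratio of DEX over mock against reads in both pools for the 37 genes, over the central 95% of all genes with 200 reads or more in 20 groups of like read number (grey). BAN lies above the grey area, and MYB12, PAL3, 4CL1 and OMT1 lie below it. DFR, LDOX, AHA10, TT12, TT19 and TT8, all called higher, lie within it.

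Sequences upstream of genes that differed by 1.5-fold or more are shown for the gene with the largest ratio and the gene with the most reads in each direction, among those with 200 reads or more. They are the 250 bases before the annotated start in the RefSeq genome TAIR10.1, with matches to the motifs searched in capitals. The motifs, read on both strands, were the G-box CACGTG, bound by bZIP and bHLH factors, and the AC elements ACCTACC and ACCAACC, bound by MYB factors. In BAN (chr1:22792804-22793053, minus strand) and MYB12 (chr2:19476076-19476325, plus strand) a G-box was found. In AHA10 (chr1:5903808-5904057, plus strand) and OMT1 (chr5:21981652-21981901, plus strand) none of these letters were found.
BAN: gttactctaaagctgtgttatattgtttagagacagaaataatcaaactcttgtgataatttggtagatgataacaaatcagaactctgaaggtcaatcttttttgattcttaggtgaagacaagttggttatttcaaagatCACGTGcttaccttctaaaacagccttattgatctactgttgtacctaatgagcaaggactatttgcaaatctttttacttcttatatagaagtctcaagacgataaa
AHA10: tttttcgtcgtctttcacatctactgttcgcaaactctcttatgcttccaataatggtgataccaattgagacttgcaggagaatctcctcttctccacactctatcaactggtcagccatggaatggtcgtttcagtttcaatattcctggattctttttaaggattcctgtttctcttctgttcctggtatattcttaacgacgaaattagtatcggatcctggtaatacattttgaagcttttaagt
MYB12: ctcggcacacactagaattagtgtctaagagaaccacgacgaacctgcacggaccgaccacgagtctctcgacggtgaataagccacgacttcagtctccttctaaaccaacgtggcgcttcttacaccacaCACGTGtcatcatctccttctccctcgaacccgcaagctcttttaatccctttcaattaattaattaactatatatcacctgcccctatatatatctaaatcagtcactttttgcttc
OMT1: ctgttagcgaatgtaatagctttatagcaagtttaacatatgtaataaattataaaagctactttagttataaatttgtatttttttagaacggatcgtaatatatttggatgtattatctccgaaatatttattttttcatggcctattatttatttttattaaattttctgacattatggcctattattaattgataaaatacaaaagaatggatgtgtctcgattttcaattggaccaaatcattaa

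The G-box occurred in 9 of the 37 upstream windows, against 6.58% of the windows of 26709 protein-coding genes. It was found on both sides of the split: in 3 of the 11 genes called higher (CHIL, DFR and BAN), in 4 of the 19 called lower (PAL4, CHS, MYB12 and PAP2) and in F3H and UF3GT, which were not called. The element ACCTACC was found in 2 of the 37 windows, those of 4CL3 and UGT89C1, and in 1.16% of all windows. The element ACCAACC was found in 3, those of 4CL2, UGT75C1 and TT8, and in 2.71% of all windows.

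A further 53 genes of phenylpropanoid metabolism and its control were taken from 7 lists, 3 of them of branches that leave the route after the entry genes and the others of flavonoid enzymes, activators, repressors and Kelch F-box genes. Of the 53, 50 had reads in both pools. Of these 50, 18 were called higher and 19 lower, around a median log2 ratio of 0.02. Among the 37 genes, 11 were called higher and 19 lower, and over all genes the shares were 36.4% and 20.8%. Monolignol genes, which make and polymerise the lignin units, had 4 of 11 higher and 6 lower, with a median of -0.06 and none at 1.5-fold. CAD4, an alcohol dehydrogenase of the last reduction, was at -0.42 ± 0.03, and the laccase gene LAC4 at -0.29 ± 0.02. Sinapate ester genes had 2 of 4 higher and 1 lower. REF1, the aldehyde dehydrogenase that makes sinapate and ferulate, was at 0.50 ± 0.02 and SNG1, a sinapoyltransferase, at -0.08 ± 0.02. REF1 overlaps a gene on the opposite strand over 114 exonic bases, so its reads are less certain.

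Genes for the hydroxycinnamoyl spermidines of the pollen coat, which are expressed in the tapetum, had 2 of 4 higher and 1 lower. TSM1, a methyltransferase of this route, was at 0.14 ± 0.01 and the hydroxylase gene CYP98A8 at 0.12 ± 0.02. SHT, the gene called lower, was at -0.09 ± 0.02, and CYP98A9 was not called at 0.03 ± 0.02. The median of the 4 was 0.07. All but TSM1 overlap another gene, CYP98A8 over 1648 exonic bases, so their reads are less certain. Among tapetum markers 5 of 6 were called higher, and their summed level was 904 RPKM in DEX and 865 in mock. Their median, 0.15, was close to the values of TSM1 and CYP98A8 but not to those of SHT and CYP98A9. Late pollen markers were higher for 3 of 4, with a median of 0.32 and a summed level of 775 in DEX and 624 in mock. Markers of green tissue were lower for 4 of 4, with a median of -0.21 and a summed level of 4084 in DEX and 4589 in mock. Entry and flavonol genes are expressed in several of these tissues, and the part of these shifts in their ratios was not tested.

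Other flavonoid enzymes, a list of acyl- and glycosyltransferase genes with the ligase gene 4CL5 and further flavonol synthase genes, had 3 of 8 higher and 2 lower. SCPL10, of a family of acyltransferase-like serine carboxypeptidases, had 634 reads in DEX against 1442 in mock, which is a log2 ratio of -0.96 ± 0.07. BGLU10, of the glycosyl hydrolase family that includes anthocyanin glucosyltransferases, was at -0.35 ± 0.06. Of the 7 further activators with reads in both pools, 2 were called higher and 1 lower. TTG2, a WRKY factor that acts downstream of TTG1 in the seed coat, was at 0.41 ± 0.14. HYH, a light-signalling bZIP factor that binds the G-box, had 93 reads in DEX against 164 in mock, which is a log2 ratio of -0.59 ± 0.19. Its partner HY5, named with its value known, was not called at -0.09 ± 0.08.

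Repressors of the route went both ways, with 5 of 12 called higher and 4 lower. SPL9, which restrains anthocyanin synthesis by disturbing the MYB-bHLH-WD40 complex, had 4939 reads in DEX against 11425 in mock, which is a log2 ratio of -0.99 ± 0.02. TRY, a single-repeat MYB protein that competes for the bHLH partners, had 341 reads in DEX against 821 in mock, which is a log2 ratio of -1.05 ± 0.09. ETC1, of the same family, had 22 reads in DEX against 13 in mock and was called higher at 0.97 ± 0.50, though the 95% counting interval of its fold, from 0.951 to 4.26, included 1. MYBL2, a repressor of DFR and TT8, was at 0.32 ± 0.03 and was named after its value was seen.

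The 4 Kelch F-box genes with reads in both pools were called lower, 2 of them narrowly, with a median of -0.29. Their proteins mark phenylalanine ammonia-lyase or chalcone synthase for degradation. KFB50, which targets the lyase, had 5110 reads in DEX against 10361 in mock, which is a log2 ratio of -0.80 ± 0.02, and it overlaps another gene on the opposite strand. KFB-CHS, which targets chalcone synthase, had 5423 reads in DEX against 8969 in mock, which is a log2 ratio of -0.50 ± 0.02. KFB01 and KFB20, looked up after the count was known, were at -0.07 ± 0.04 and -0.06 ± 0.04. Their posteriors for DEX being higher in the authors' deposited table were 0.044 and 0.0355, which would not pass a limit of 0.01, and the 95% counting intervals of their folds, from 0.906 to 1.006 and from 0.910 to 1.006, included 1.

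**Figure D4:**
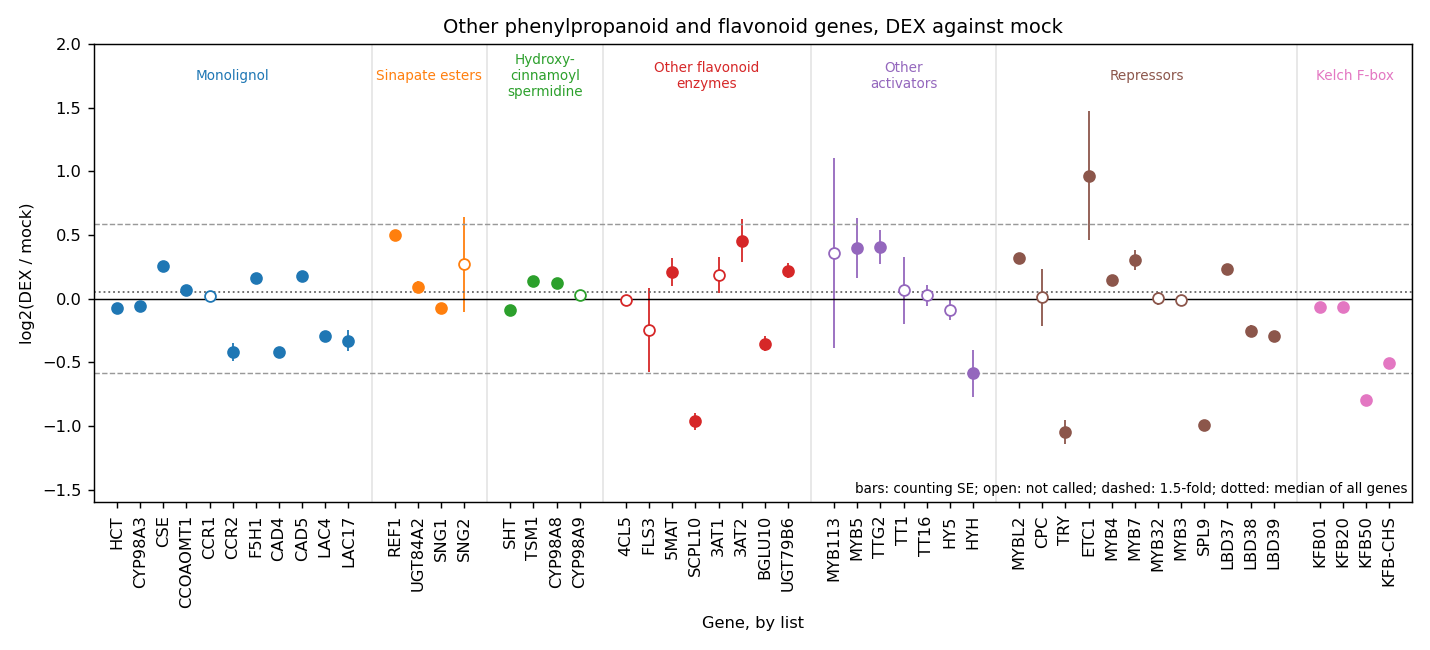
Log2 ratio of DEX over mock for the 50 further genes with reads in both pools, by list, with the counting standard error as bars and open points for genes that were not called. SCPL10, TRY, SPL9 and KFB50 lie lowest, from -1.05 to -0.80, and ETC1 highest at 0.97.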

How the data were processed

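Messenger RNA was sequenced from 8 libraries of floral buds, 4 per treatment. TopHat 1.2.0, HTSeq 0.4.5p6 and the build TAIR10 appear in the submitters' processing notes, without roles. The authors deposited 1 table in the output format of LOX, per the file headers, with for each gene the level in each treatment as a ratio to the lower one, the posterior probability of each direction, interval distances and a log-likelihood score, pooled over libraries. The score deposited by the authors was taken as a Poisson log-likelihood without its factorial, N ln(N/T) - N, summed over DEX and mock, where N is a gene's reads and T the pool's. This reading is an inference on which all reads, levels and counting errors rest. For the 908 genes with reads in 1 pool it gave whole reads within 0.05 in 100% of cases, and for 8294 genes with up to 1000 reads in both pools the totals were whole within 0.1 in 99.98%. Reads were written only to the digits that the rounded score allows.

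The slope of the normal score of the posterior on ratio over counting error was 1.00, so the posterior holds no visible term for replicate spread. With pooled values no test across replicates was possible. Counting intervals cover counting error only. Levels used exonic lengths of the RefSeq annotation of TAIR10.1, which matched all 37 genes. Copies with near-identical sequence came from blastn 2.17.0 (identity of 95%, 100 aligned bases), and overlaps by exon. The genes and lists were chosen with earlier results of these data known; the ovule and seed lists and the correction for GC content and length were added after seeing the data. Full values are given for genes called at 1.5-fold or more and for the 2 with the most reads in each step. Of the further lists, genes called at 1.5-fold or more and up to 2 with the largest ratio over its error are named. Alternatives were another scaling, a posterior limit of 0.01, a 2-fold limit, a minimum of 200 reads and the removal of genes with copies or overlaps. Python 3.11.15 was used, with SciPy 1.17.1, pandas 2.3.3, NumPy 2.4.6 and, for plots, Matplotlib 3.10.9.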

Additional observations from a re-analysis of the deposited data

How the results depend on the processing

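No paired analysis was possible because LOX levels were given for pools only, and for the same reason no replicate could be left out. Scaling to a median ratio of 0 over genes with 200 reads or more lowered each log2 ratio by 0.04, the median of the entry genes was -0.15 and that of the decoration genes turned to -0.037. The decoration median was also negative, at -0.0077, with totals that leave out the 1% most abundant genes, and at -0.32 without genes that have a copy or an overlap, so its direction is not settled. That last setting left 7 genes called higher in place of 11, an early flavonoid median of -0.25 over 4 genes and a late flavonoid median of 0.75 over 2, by construction from fewer genes. At 2-fold, 1 gene was higher (BAN) and 1 lower (PAP2). Under the scaling to the median, 4CL3 and UGT89C1 also became calls, AHA10 fell under 1.5-fold at 0.58 and 4CL1 passed it at -0.60, so that 2 genes were higher and 6 lower at that limit. With a minimum of 200 reads the transport median, 0.52, was above the late flavonoid median, 0.50. PAP2 lost its call at a posterior limit of 0.01. The correction for GC content and length, chosen after seeing the data, changed no call except that 4CL3 became one, at -0.06.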
